A study of Rattus norvegicus with 4 samples.

Results

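Long non-coding RNA (lncRNA) transcripts that stood higher at 48 h than at 24 h in both high and normal glucose numbered 35, of 17934 transcripts listed in at least 1 of 4 libraries of primary rat cardiomyocytes. They were chosen by their own values. A transcript was taken if its mean count over the 4 libraries was 20 or more, with an unlisted transcript counted as 0, and if its FPKM plus 0.5 was 2-fold or more higher at 48 h in each medium. FPKM is the read count scaled to the length of the transcript and to the library total. Of the 17934 transcripts, 5038 had a mean count of 20 or more, and the 35 came from these. The differences between 48 h and 24 h given here are therefore descriptions of the transcripts that the rule picked, with no test.

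Cardiomyocytes came from Sprague-Dawley rats aged 1 to 2 days and were cultured in medium M199 with carnitine at 2 mM, creatine at 5 mM and taurine at 5 mM. Per the labels, high glucose served to bring on oxidative stress and apoptosis in these cells. The groups were high glucose (33 mmol/l) for 48 h, high glucose for 24 h, normal glucose (5 mmol/l glucose with 28 mmol/l mannitol, a sugar alcohol that serves as an osmotic control) for 48 h and normal glucose for 24 h. Each group was 1 library of total RNA, so no difference has a replicate check, and a difference between times cannot be told apart from a difference between 2 libraries. The labels give no number of animals or cultures behind a library. The tables hold lncRNA transcripts without gene names, so the labelled cell type was not checked against its marker genes. In such bulk samples, more cells of a type and more RNA per cell cannot be told apart.

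An lncRNA is a long transcript with no recognised protein product. Some lncRNAs act in the nucleus on chromatin and splicing, others in the cytoplasm on mRNA and microRNA, and for most no function is known. In the heart, lncRNAs have been described that act on hypertrophy, chromatin remodelling and survival of cardiomyocytes. Many loci give several overlapping isoforms, and the reads of shared exons have to be divided among them when short reads are counted. NONCODE, a catalogue of lncRNAs, supplied 34 of the 35 identifiers, and 1 was an assembled transcript with an MSTRG identifier. The files pair none of these with a gene name, and none is given here. Positions are in the rat build rn6 and carry no strand. The sources used here do not give how the counting used strand, so reads of a gene on the opposite strand cannot be told apart from those of an lncRNA that it overlaps.

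The lncRNA counts summed to between 846946 and 1075428 per library, and the totals recovered from count, length and FPKM ran from 11877895 to 15654067. In high glucose 188 of the 5038 transcripts were 2-fold or more higher at 48 h (3.73%) and 387 were 2-fold or more lower (7.68%). In normal glucose 144 were higher (2.86%) and 178 lower (3.53%). The 35 that were higher in both media made up 0.695% of the 5038, which is 18.6% of the 188 and 24.3% of the 144. A further 48 transcripts were 2-fold or more lower in both media, and 69 were past 2-fold in opposite directions. These shares describe what the rule selected.

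The 35 transcripts were 7.17-fold higher at 48 h at their median in high glucose and 6.10-fold higher in normal glucose, as ratios of FPKM + 0.5. The size depends on the pseudocount: with 0.1 FPKM added instead, the median was 12.0 in high glucose and 7.59 in normal glucose. Single ratios ran from 2.13 to 147 in high glucose and from 2.22 to 95.2 in normal glucose. The median log2 ratio of the 35 was 2.84 in high glucose and 2.61 in normal glucose, against -0.11 in high glucose and 0.03 in normal glucose over all 5038. In both media 16 of the 35 were 4-fold or more higher and 8 were 8-fold or more higher. In FPKM, both 48 h libraries stood above both 24 h libraries for 34 of the 35, a count that the rule largely fixes. The same pattern held for 13.8% of the 5038. The exception was NONRATT019722.2, whose 48 h level in high glucose was under its 24 h level in normal glucose.

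**Figure D1:**
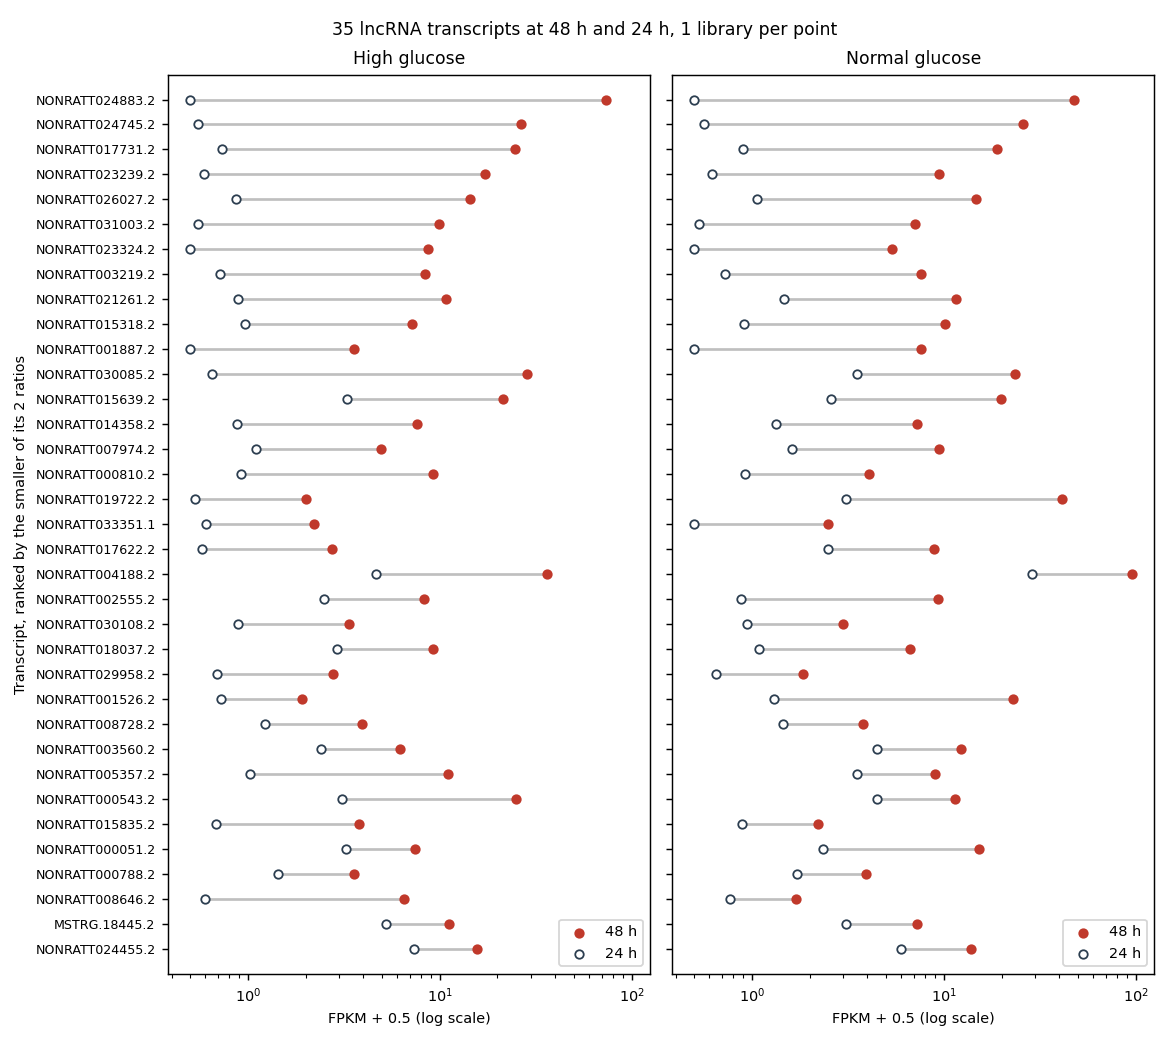
Level of each of the 35 transcripts as FPKM + 0.5 on a log axis, in high glucose (left) and normal glucose (right); filled points are 48 h, open points 24 h, and each point is 1 library. Transcripts are ranked from the top by the smaller of their 2 ratios, and the open points of the upper rows lie near 0.5, where a transcript has no reads or few.

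Together the 35 transcripts took 0.766% of the lncRNA counts in high glucose at 48 h (95% Wilson interval 0.749 to 0.784) and 0.0599% in high glucose at 24 h (0.0554 to 0.0647). In normal glucose they took 0.995% at 48 h (0.976 to 1.01) and 0.176% at 24 h (0.167 to 0.185). These are 6935 reads in high glucose and 10699 reads in normal glucose at 48 h, against 640 reads in high glucose and 1491 reads in normal glucose at 24 h. A single transcript, NONRATT004188.2, held 22.1% of the reads of the 35 in high glucose and 40.3% in normal glucose at 48 h, against 30.8% in high and 67.9% in normal glucose at 24 h. The summed share in normal glucose thus rests in large part on 1 transcript. The rule chose the 35 by these same counts, so the gaps between times are largely fixed by the choice. The Wilson intervals cover counting error alone, and not the spread between libraries or cultures.

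Many of the 35 were near absent at 24 h, and since the 24 h level is the denominator of the ratio, their larger ratios follow from how the ratio is formed and from the count minimum. With 3 reads taken as the floor, which is between 0.192 and 0.253 CPM in the 4 libraries (CPM is the count scaled to the library total), 8 of the 35 were at or under it in both 24 h libraries, 9 in 1 of them and 18 in neither, a grouping made after the values were seen. At 48 h the lowest count of any of the 35 was 17 reads in high glucose and 32 in normal glucose. The median ratio of FPKM + 0.5 was 17.7 in high glucose and 14.3 in normal glucose for the 8, and 4.13 in high glucose and 3.26 in normal glucose for the 18. Folds without a pseudocount are given for single transcripts as ratios of CPM, with an exact 95% interval for counting error alone. The libraries carry no molecular identifiers, and reads copied by PCR are not independent, so these intervals and the floor cover counting error only. Where no read was listed at 24 h, the fold is taken against 3 reads in that library. The start of its exact interval, which has no upper end, is then given beside it. Over the 35, with such transcripts taken against 3 reads, the median fold was 17.8 in high glucose and 9.06 in normal glucose.

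NONRATT024883.2 (chromosome 6, 27565694 to 27582980, spliced, 683 nt) ranked first. It had 72.8 FPKM (707 reads) in high glucose and 47.1 FPKM (478 reads) in normal glucose at 48 h, and was listed in neither 24 h library. Its fold was at least 259 in high glucose and at least 127 in normal glucose. It was the most abundant of the 35 per kilobase in high glucose at 48 h, and its shared locus is described further on. NONRATT024745.2 (chromosome 6, 963902 to 988572, spliced, 1368 nt) ranked second, with 26.0 FPKM (505 reads) in high glucose and 25.3 FPKM (515 reads) in normal glucose at 48 h, against 0.0467 FPKM (1 read) in high glucose and 0.0615 FPKM (1 read) in normal glucose at 24 h. Its levels at 48 h in the media lay within their counting error, at a ratio of 1.02 of high over normal glucose (interval 0.904 to 1.16). Both transcripts lie on chromosome 6, where 5 of the 35 were found.

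Next in rank came a pair of single-block transcripts. NONRATT017731.2 (chromosome 20, 22790939 to 22791776, 1 block of 838 nt) had 24.2 FPKM (288 reads) in high glucose and 18.5 FPKM (230 reads) in normal glucose at 48 h, against 0.229 FPKM (3 reads) in high glucose and 0.402 FPKM (4 reads) in normal glucose at 24 h. Its fold was 106 in high glucose (interval 35.8 to 515) and 46.0 in normal glucose (interval 17.7 to 170.2). NONRATT023239.2 (chromosome 5, 69857734 to 69858452, 1 block of 719 nt) had 16.8 FPKM (172 reads) in high glucose and 8.99 FPKM (96 reads) in normal glucose at 48 h, against 0.0889 FPKM (1 read) in high glucose and 0.117 FPKM (1 read) in normal glucose at 24 h, a fold of 189 in high glucose (interval 33.5 to 7519) and 76.8 in normal glucose (interval 13.5 to 3063). Neither overlapped another listed transcript. For both, the interval of high over normal glucose at 48 h lay above 1, at 1.10 to 1.56 for NONRATT017731.2 and 1.45 to 2.43 for NONRATT023239.2, which covers counting error and not the spread between cultures.

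NONRATT026027.2 (chromosome 7, 116358306 to 116359862, spliced, 1059 nt) had 13.9 FPKM (210 reads) in high glucose and 14.2 FPKM (224 reads) in normal glucose at 48 h, against 0.362 FPKM (6 reads) in high glucose and 0.556 FPKM (7 reads) in normal glucose at 24 h. Its fold was 38.5 in high glucose (interval 17.4 to 106) and 25.6 in normal glucose (interval 12.2 to 64.4). It was low but above the floor at 24 h, and near equal in the media at 48 h. NONRATT031003.2 (chromosome X, 77020429 to 77023113, 1 block of 2685 nt), the single one of the 35 on chromosome X, had 9.37 FPKM (358 reads) in high glucose and 6.57 FPKM (262 reads) in normal glucose at 48 h, against 0.0476 FPKM (2 reads) in high glucose and 0.0313 FPKM (1 read) in normal glucose at 24 h. Its fold was 197 in high glucose (interval 54.1 to 1633) and 209 in normal glucose (interval 37.3 to 8305), with wide intervals from 2 reads and 1 read at 24 h. NONRATT023324.2 (chromosome 5, 86585114 to 86586746, spliced, 1487 nt) had 8.18 FPKM (173 reads) in high glucose and 4.84 FPKM (107 reads) in normal glucose at 48 h, and was listed in neither 24 h library. Against 3 reads at 24 h, its fold was 63.5 in high glucose and 28.5 in normal glucose. The exact intervals started at 51.1 in high glucose and 22.8 in normal glucose. Each of these 3 was several times its 24 h level in both media, and the 24 h counts behind them were between 0 and 7 reads.

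The ranks from 8 to 10 held NONRATT003219.2, NONRATT021261.2 and NONRATT015318.2. NONRATT003219.2 (chromosome 1, 199057773 to 199059254, 1 block of 1482 nt) had 7.87 FPKM (166 reads) in high glucose and 7.13 FPKM (157 reads) in normal glucose at 48 h, against 0.216 FPKM (5 reads) in high glucose and 0.227 FPKM (4 reads) in normal glucose at 24 h. NONRATT021261.2 (chromosome 4, 49387632 to 49388935, 1 block of 1304 nt) had 10.3 FPKM (191 reads) in high glucose and 11.0 FPKM (214 reads) in normal glucose at 48 h, against 0.392 FPKM (8 reads) in high glucose and 0.968 FPKM (15 reads) in normal glucose at 24 h. The fold of NONRATT021261.2 was 26.3 in high glucose (interval 13.1 to 61.7) and 11.4 in normal glucose (interval 6.76 to 20.7). Both lay alone at their loci and were at like levels in the media at 48 h. NONRATT003219.2 was higher by a fold of 36.5 in high glucose (interval 15.3 to 114) and 31.4 in normal glucose (interval 12.0 to 117). NONRATT015318.2 (chromosome 2, 150728415 to 150755696, spliced, 410 nt) had 6.69 FPKM (39 reads) in high glucose and 9.69 FPKM (59 reads) in normal glucose at 48 h, against 0.467 FPKM (3 reads) in high glucose and 0.411 FPKM (2 reads) in normal glucose at 24 h. With 2 and 3 reads at 24 h, its fold of 14.3 in high glucose (interval 4.55 to 72.4) and 23.6 in normal glucose (interval 6.25 to 199) is loosely fixed.

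Of the 8 transcripts at or under the floor in both 24 h libraries, NONRATT001887.2 and NONRATT033351.1 ranked below the first 10. NONRATT001887.2 (chromosome 1, 276715771 to 276730514, spliced, 2460 nt) had 3.09 FPKM (108 reads) in high glucose and 7.14 FPKM (261 reads) in normal glucose at 48 h, and was listed in neither 24 h library. Its level in high glucose at 48 h was 0.432 times the normal glucose level at 48 h (interval 0.342 to 0.543). NONRATT033351.1 (chromosome 6, 133658937 to 133691129, spliced, 1889 nt) had 1.71 FPKM (46 reads) in high glucose and 2.00 FPKM (56 reads) in normal glucose at 48 h, against 0.101 FPKM (3 reads) in high glucose and no listed read in normal glucose at 24 h. It was low at 48 h as well, and its shared locus is described further on.

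The 5 transcripts with the highest mean count gave 56.6% of the reads of the 35 over both 48 h libraries. They were NONRATT004188.2, NONRATT019722.2, NONRATT024883.2, NONRATT024745.2 and NONRATT030085.2. NONRATT004188.2 (chromosome 10, 31237556 to 31240582, 1 block of 3027 nt) had 35.5 FPKM (1530 reads) in high glucose and 95.8 FPKM (4307 reads) in normal glucose at 48 h, against 4.16 FPKM (197 reads) in high glucose and 28.2 FPKM (1013 reads) in normal glucose at 24 h. Its counts give the narrowest intervals among the 35, with a fold of 8.55 in high glucose (interval 7.36 to 9.96) and 3.40 in normal glucose (interval 3.17 to 3.64). It was lower in high glucose at both times, at 0.371 times the normal glucose level at 48 h (interval 0.350 to 0.393) and 0.148 times the normal glucose level at 24 h (interval 0.126 to 0.172). Its highest library was normal glucose at 48 h, and its lowest high glucose at 24 h.

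NONRATT019722.2 (chromosome 3, 127528410 to 127530493, 1 block of 2084 nt) differed widely between media as well as between times. It had 1.52 FPKM (45 reads) in high glucose and 40.6 FPKM (1257 reads) in normal glucose at 48 h, against 0.0307 FPKM (1 read) in high glucose and 2.59 FPKM (64 reads) in normal glucose at 24 h. Its level in high glucose was 0.0374 times the normal glucose level at 48 h (interval 0.0271 to 0.0503), and at 24 h 1 read in high glucose stood against 64 in normal glucose. The fold between times was 49.5 in high glucose (interval 8.45 to 1999) and 15.7 in normal glucose (interval 12.2 to 20.5). It is the transcript whose libraries overlapped between times.

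Between media the ratios of FPKM + 0.5 were close for most transcripts, which depends on the pseudocount. For 23 of the 35 the ratio in high glucose lay within 2-fold of the ratio in normal glucose. For 7 it was more than 2-fold larger in high glucose and for 5 more than 2-fold larger in normal glucose. The ratio in high glucose was the larger in 22 and that in normal glucose in 13. Under the scalings described further on, the 22 became 23 with TMM factors and 24 with equal lncRNA sums. As folds of CPM, some of the 23 lay more than 2-fold apart, in either direction. NONRATT017622.2 had folds of 29.7 in high glucose, from 1 read at 24 h, and 4.24 in normal glucose. NONRATT018037.2 had folds of 3.61 in high glucose and 10.4 in normal glucose. With 1 library per group the difference between the media was not tested.

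**Figure D2:**
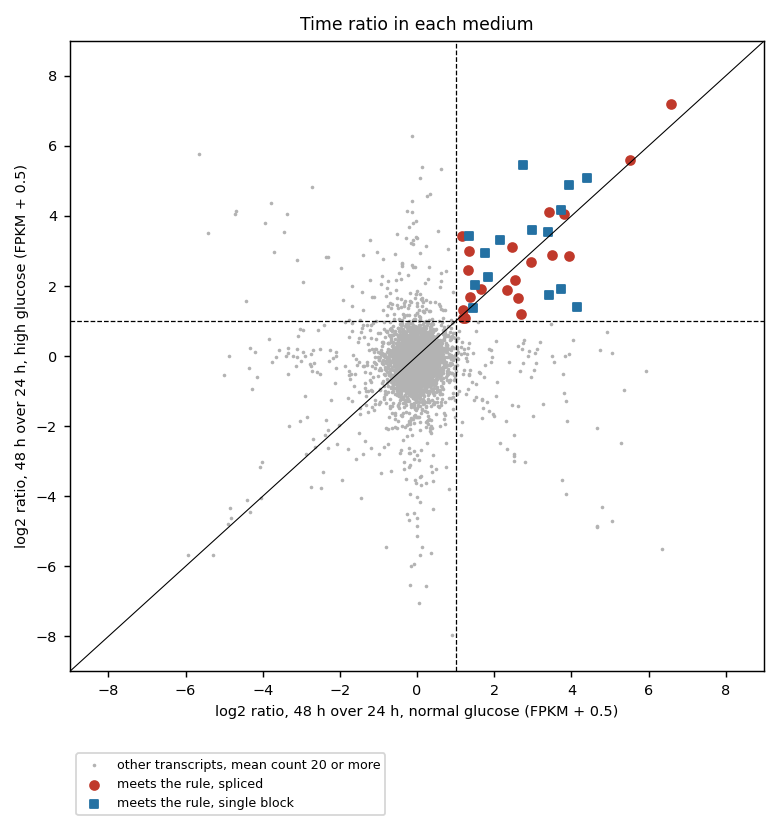
Log2 ratio of 48 h over 24 h (FPKM + 0.5) in normal glucose (x axis) and high glucose (y axis) for the 5038 transcripts with a mean count of 20 or more; grey points do not meet the rule, red circles are the 20 spliced and blue squares the 15 single-block transcripts that do, dashed lines mark 2-fold and the solid line equal ratios. The 35 fill the upper right corner that the rule cuts out, while many other transcripts lie along an axis, past 2-fold in 1 medium alone.

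In high glucose the ratio was larger by the widest margins for NONRATT030085.2, NONRATT005357.2 and NONRATT008646.2. NONRATT030085.2 (chromosome 9, 67293784 to 67294640, 1 block of 857 nt) had 28.1 FPKM (342 reads) in high glucose and 23.1 FPKM (294 reads) in normal glucose at 48 h, against 0.149 FPKM (2 reads) in high glucose and 3.05 FPKM (31 reads) in normal glucose at 24 h. The fold was 188 in high glucose (interval 51.7 to 1560.0) and 7.58 in normal glucose (interval 5.23 to 11.4). Its 48 h levels in the media were near each other, and the gap lay at 24 h, where high glucose was 0.0490 times the normal glucose level (interval 0.00568 to 0.192). NONRATT005357.2 (chromosome 10, 25860700 to 25861923, 1 block of 1224 nt) had 10.6 FPKM (184 reads) in high glucose and 8.47 FPKM (154 reads) in normal glucose at 48 h, against 0.522 FPKM (10 reads) in high glucose and 3.03 FPKM (44 reads) in normal glucose at 24 h. The fold was 20.2 in high glucose (interval 10.8 to 42.9) and 2.80 in normal glucose (interval 1.99 to 4.01). It too was near equal in the media at 48 h and lower in high glucose at 24 h, at 0.172 times the normal glucose level (interval 0.0774 to 0.348). NONRATT008646.2 (chromosome 13, 35494716 to 35503484, spliced, 1907 nt) had 6.01 FPKM (163 reads) in high glucose and 1.20 FPKM (34 reads) in normal glucose at 48 h, against 0.101 FPKM (3 reads) in high glucose and 0.265 FPKM (6 reads) in normal glucose at 24 h. With a fold of 59.8 in high glucose (interval 20.1 to 293) and 4.53 in normal glucose (interval 1.88 to 13.2), the gap lay at 48 h, where high glucose was 5.01 times the normal glucose level (interval 3.44 to 7.47).

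With the pseudocount added, the widest margins in the other direction belonged to NONRATT001526.2, NONRATT019722.2 and NONRATT002555.2. For NONRATT019722.2 these ratios were 3.80 in high glucose and 13.3 in normal glucose, and its direction depends on the pseudocount. As folds of CPM it was the larger in high glucose, at 49.5 (interval 8.45 to 1999) from 1 read at 24 h. In normal glucose the fold was 15.7 (interval 12.2 to 20.5), which lies within the interval in high glucose. NONRATT001526.2 (chromosome 1, 225210580 to 225211421, 1 block of 842 nt) had 1.42 FPKM (17 reads) in high glucose and 22.5 FPKM (281 reads) in normal glucose at 48 h, against 0.228 FPKM (3 reads) in high glucose and 0.800 FPKM (8 reads) in normal glucose at 24 h. Its fold was 6.24 in high glucose (interval 1.80 to 33.2) and 28.1 in normal glucose (interval 14.1 to 65.7), with a level in high glucose of 0.0632 times the normal glucose level at 48 h (interval 0.0363 to 0.103). NONRATT002555.2 (chromosome 1, 92002927 to 92004691, 1 block of 1765 nt) had 7.81 FPKM (196 reads) in high glucose and 8.85 FPKM (232 reads) in normal glucose at 48 h, against 1.99 FPKM (55 reads) in high glucose and 0.382 FPKM (8 reads) in normal glucose at 24 h. The fold was 3.92 in high glucose (interval 2.89 to 5.39) and 23.2 in normal glucose (interval 11.6 to 54.3). At 48 h its levels in the media were near each other, and at 24 h high glucose was 5.22 times the normal glucose level (interval 2.47 to 12.7). The media thus differed mainly at 24 h for NONRATT002555.2, NONRATT030085.2 and NONRATT005357.2, mainly at 48 h for NONRATT001526.2 and NONRATT008646.2, and at both times for NONRATT019722.2.

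High over normal glucose at a single time is not the contrast of the rule, although it uses the same libraries. Counts past 2-fold are given here for ratios of FPKM + 0.5. At 48 h 3 of the 35 were 2-fold or more higher in high glucose (8.57%, beside 4.19% of the 5038) and 6 were 2-fold or more lower (17.1%, beside 7.44%). At 24 h 2 of the 35 were 2-fold or more higher (5.71%, beside 3.31%) and 5 were 2-fold or more lower (14.3%, beside 3.37%). The 26 others at 48 h and 28 others at 24 h lay within 2-fold. Since the 35 were chosen for differences among these same libraries, nothing particular to them is read from these shares. NONRATT019722.2, NONRATT017622.2 and NONRATT004188.2 were 2-fold or more lower in high glucose at both times on this scale, and none of the 35 was 2-fold or more higher at both. As ratios of CPM, with no pseudocount, NONRATT003560.2 and NONRATT001526.2 were past 2-fold lower at both times too. The values of NONRATT003560.2 are given further on. NONRATT001526.2 stood at 0.0632 times the normal glucose level at 48 h and 0.285 times at 24 h. Its 24 h ratio came from 3 reads and 8 reads (interval 0.0486 to 1.19). NONRATT017622.2 (chromosome 20, 7219444 to 7220293, 1 block of 850 nt) had 2.23 FPKM (27 reads) in high glucose and 8.39 FPKM (106 reads) in normal glucose at 48 h, against 0.0752 FPKM (1 read) in high glucose and 1.98 FPKM (20 reads) in normal glucose at 24 h.

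The median log2 ratio of high over normal glucose was 0.10 at 48 h for the 35 and -0.18 for all 5038. At 24 h it was -0.09 for the 35 and -0.04 for all 5038, and the median of all 5038 turned to 0.04 with the TMM factors described next. High glucose was above normal glucose for 21 of the 35 at 48 h and below for 14, beside 34.4% of the 5038 above. At 24 h it was above for 11 and below for 21, beside 44.7% of the 5038 above, and 3 were unlisted in both. The counts at 48 h depend on the scaling. With TMM factors, a scaling that takes most transcripts to be unchanged, the median of all 5038 at 48 h moved to -0.03. With this scaling 24 of the 35 were above normal glucose and 11 below, beside 47.0% of the 5038 above. With these factors 4 of the 35 were 2-fold or more higher and 4 were 2-fold or more lower at 48 h, and the counts of 2 and 5 at 24 h did not move.

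**Figure D3:**
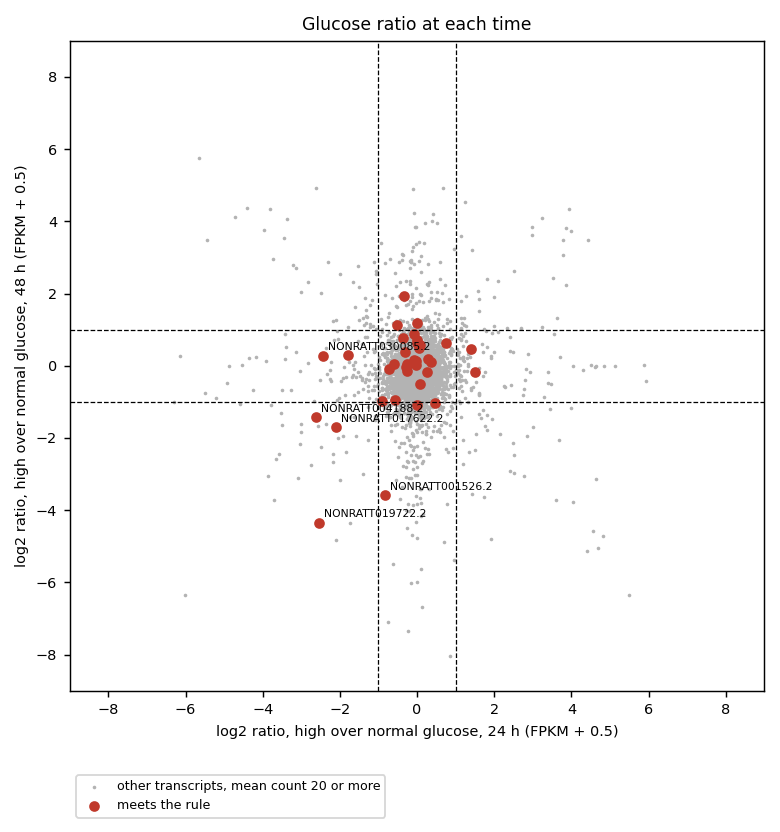
Log2 ratio of high over normal glucose (FPKM + 0.5) at 24 h (x axis) and 48 h (y axis), for the 35 transcripts (red) and the other transcripts with a mean count of 20 or more (grey); dashed lines mark 2-fold, and transcripts past 2 on the log2 scale of either axis are named. NONRATT019722.2 lies lowest of the 35, and 26 of the 35 lie within 2-fold at 48 h.

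Of the remaining transcripts, NONRATT015639.2 (chromosome 2, 205525187 to 205534214, spliced, 365 nt) had the shortest length and 20.8 FPKM in high glucose and 19.4 FPKM in normal glucose at 48 h, against 2.80 FPKM in high glucose and 2.08 FPKM in normal glucose at 24 h. NONRATT014358.2 (chromosome 19, 55118679 to 55145817, spliced, 507 nt) had 51 reads in high glucose and 51 reads in normal glucose at 48 h, against 3 reads in high glucose and 5 reads in normal glucose at 24 h. NONRATT000810.2 (chromosome 1, 137290584 to 137291186, 1 block of 603 nt) had 75 reads in high glucose and 32 reads in normal glucose at 48 h, against 4 reads in high glucose and 3 reads in normal glucose at 24 h. NONRATT014358.2 was at like levels in the media at 48 h, and NONRATT000810.2 was 2.45 times as high in high glucose there (interval 1.60 to 3.83). NONRATT030108.2 (chromosome 9, 70282459 to 70293310, spliced, 3586 nt), the longest of the 35, had 146 reads in high glucose and 133 reads in normal glucose at 48 h, against 22 reads in high glucose and 19 reads in normal glucose at 24 h. NONRATT018037.2 (chromosome 3, 11270655 to 11271876, spliced, 851 nt) had 105 reads in high glucose and 78 reads in normal glucose at 48 h, against 32 reads in high glucose and 6 reads in normal glucose at 24 h. At 24 h NONRATT018037.2 was higher in high glucose, at 4.05 times the normal glucose level at 24 h (interval 1.67 to 11.8). NONRATT029958.2 (chromosome 9, 45468222 to 45469911, 1 block of 1690 nt) had 55 reads in high glucose and 34 reads in normal glucose at 48 h, against 5 reads in high glucose and 3 reads in normal glucose at 24 h. NONRATT003560.2 (chromosome 1, 226260392 to 226261503, 1 block of 1112 nt) had 90 reads in high glucose and 194 reads in normal glucose at 48 h, against 33 reads in high glucose and 53 reads in normal glucose at 24 h. The level of NONRATT003560.2 in high glucose was 0.484 times the normal glucose level at 48 h (interval 0.373 to 0.625) and 0.472 times the normal glucose level at 24 h (interval 0.296 to 0.743), a like difference at both times.

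Just inside the threshold stood NONRATT024455.2, MSTRG.18445.2 and NONRATT008646.2. NONRATT024455.2 (chromosome 6, 104611083 to 104614941, spliced, 748 nt) had 15.1 FPKM (161 reads) in high glucose and 13.3 FPKM (148 reads) in normal glucose at 48 h, against 6.83 FPKM (80 reads) in high glucose and 5.52 FPKM (49 reads) in normal glucose at 24 h, ratios of FPKM + 0.5 of 2.13 in high glucose and 2.30 in normal glucose. MSTRG.18445.2 (chromosome 6, 136657650 to 136659541, spliced, 486 nt) had 10.7 FPKM (74 reads) in high glucose and 6.79 FPKM (49 reads) in normal glucose at 48 h, against 4.73 FPKM (36 reads) in high glucose and 2.60 FPKM (15 reads) in normal glucose at 24 h, ratios of 2.14 in high glucose and 2.35 in normal glucose. NONRATT008646.2 passed narrowly in normal glucose alone, with ratios of 10.8 in high glucose and 2.22 in normal glucose. Just outside it stood MSTRG.3899.2, with ratios of 1.97 in high glucose and 2.96 in normal glucose, NONRATT000843.2, with 1.91 in high glucose and 11.1 in normal glucose, and NONRATT027255.2, with 3.58 in high glucose and 1.90 in normal glucose. With 1 FPKM added in place of 0.5, the smaller ratio was under 2 for 4 of the 35, at 1.99 for NONRATT000788.2, 1.97 for NONRATT001526.2, 1.95 for NONRATT015835.2 and 1.74 for NONRATT008646.2. The rule sets no limit on counting error, and the whole interval of the fold lay above 2 for 29 of the 35 in high glucose and 28 in normal glucose, counts that the choice by these same reads largely fixes.

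Spliced and single-block transcripts were both common among the 35. A transcript was called spliced where its length was shorter than its span on the chromosome, which held for 20 of the 35 (57.1%, Wilson interval 40.9 to 72.0) and 2538 of the 5038 (50.4%). The spliced transcripts had a median length of 878.5 nt over a median span of 10784 bp, and spans ran from 1222 to 33035 bp. Among all spliced transcripts the median length was 873 nt and the median span 5057.5 bp. The 15 single-block transcripts had a median length of 1224 nt (range 603 to 3027), beside 1216.5 nt for all single-block transcripts. The median ratio was 5.99 in high glucose and 5.63 in normal glucose for the spliced transcripts, and 10.0 in high glucose and 7.86 in normal glucose for the single-block ones. Whether a block lies in an intron, an exon or an untranslated region of a protein-coding gene was not analysed here.

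The 35 lay on 14 chromosomes, each at a locus of its own. Chromosome 1 held 9 of them (25.7%, beside 11.8% of the 5038), chromosome 6 held 5 (14.3%, beside 4.53%) and chromosomes 2 and 9 held 3 each. No pair lay within 1000 kb: the closest, NONRATT001526.2 and NONRATT003560.2 on chromosome 1, lay 1049 kb apart. Their spacing was not compared with that of the 5038. Both of that pair are single blocks and were lower in high glucose at 48 h.

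A locus is taken here as a chain of listed transcripts, each sharing 1 base or more of its span with another. By this definition 21 of the 35 were alone at their locus (60.0%, Wilson interval 43.6 to 74.4, beside 66.0% of the 5038). The other 14 shared their loci with 59 listed transcripts, of which 28, at 10 loci, had a mean count of 20 or more. As ratios of FPKM + 0.5, none of these 28 was 2-fold apart in either direction in normal glucose, where 2.86% of the 5038 were higher and 3.53% lower. In high glucose 1 of the 28 was 2-fold or more higher and 4 were 2-fold or more lower, beside 3.73% and 7.68%. Without the pseudocount, as CPM, 3 of the 28 passed 2-fold in normal glucose, with NONRATT001885.2 at 0.447, NONRATT024617.2 at 0.492 and NONRATT024619.2 at 2.14. In high glucose NONRATT024456.2 was then past 2-fold lower too, at 0.484 (interval 0.215 to 1.02). The median log2 ratio of the 28 (FPKM + 0.5) was -0.11 in high glucose and 0.23 in normal glucose. Most of the 28 thus lay within 2-fold between times. They are by definition transcripts that did not meet the rule, so their contrast with those that did is in part fixed by the choice.

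Summed over a locus, the difference between times was smaller. Of the 14 shared loci, 4 were still 2-fold or more higher in both media as sums of FPKM, those of NONRATT024883.2, NONRATT024745.2, NONRATT031003.2 and NONRATT000051.2. The locus of NONRATT000788.2 was so in high glucose alone, with ratios of 2.26 in high glucose and 1.69 in normal glucose. At the remaining 9 loci the ratio of summed FPKM was under 2 in both media. A sum of FPKM gives short isoforms more weight than a sum of reads does, and by reads, as CPM, the locus of NONRATT001887.2, among these 9, was 3.96-fold higher in high glucose and 5.66-fold higher in normal glucose. The median over the 14 loci was 1.58 in high glucose and 1.55 in normal glucose. Together with the 21 transcripts alone at their loci, 25 of the 35 loci met the rule as sums. The counts do not show how reads of shared exons were assigned, and the part of read assignment in these differences was not tested.

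**Figure D4:**
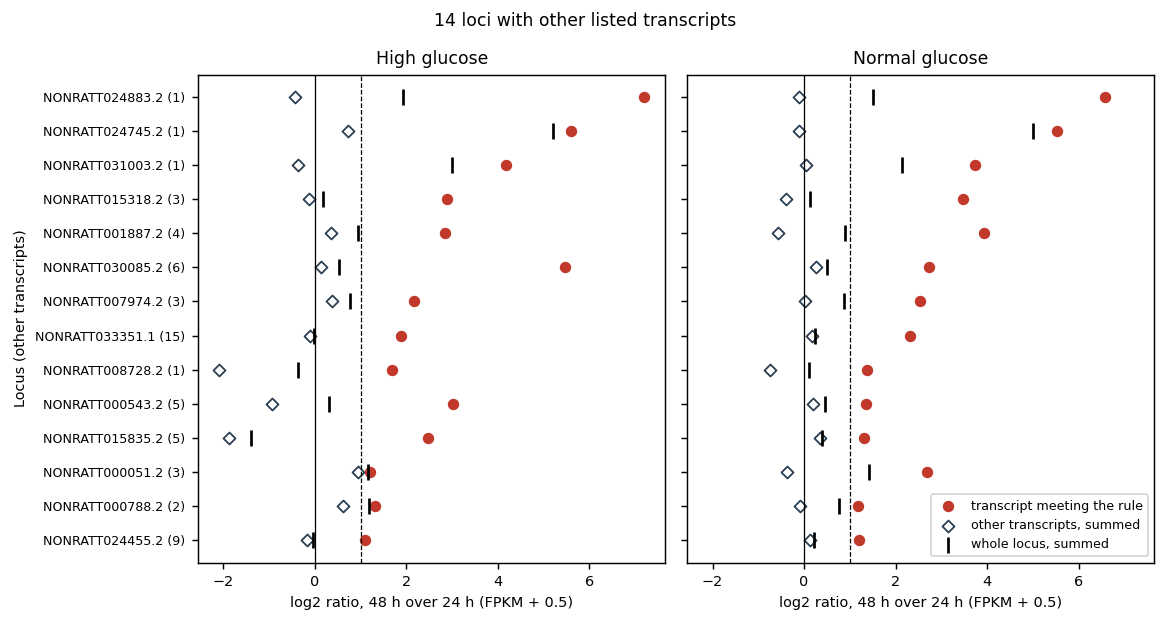
Log2 ratio of 48 h over 24 h (FPKM + 0.5) at the 14 shared loci in high glucose (left) and normal glucose (right): the transcript that met the rule (red), the sum of the other listed transcripts (open diamonds) and the whole locus (bars), with the number of other transcripts in brackets; the dashed line marks 2-fold. The bars pass the dashed line in both media at 4 loci.

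At the locus of NONRATT024883.2, the only other listed transcript was NONRATT024884.2 (chromosome 6, 27578447 to 27589496, 274 nt), with 67 reads in high glucose and 91 reads in normal glucose at 48 h, against 100 reads in high glucose and 79 reads in normal glucose at 24 h. The locus as a whole thus had 774 reads in high glucose and 569 reads in normal glucose at 48 h, against 100 reads in high glucose and 79 reads in normal glucose at 24 h. NONRATT024884.2 lay within 2-fold between times, and NONRATT024883.2 supplied 91.3% of the reads of the locus at 48 h in high glucose and 84.0% in normal glucose. At the loci of NONRATT024745.2 and NONRATT031003.2 the other transcripts were scarce, so that NONRATT024745.2 and NONRATT031003.2 supplied between 95.3% and 99.8% of the reads at 48 h.

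On chromosome 13 a pair of transcripts with nearly the same span differed in opposite directions. NONRATT008728.2 and NONRATT008727.2 share the start 51275948 and end at 51280865 and 51280839. NONRATT008728.2 had 47 reads in high glucose and 47 reads in normal glucose at 48 h, against 11 reads in high glucose and 11 reads in normal glucose at 24 h. NONRATT008727.2 had 8 reads in high glucose and 26 reads in normal glucose at 48 h, against 57 reads in high glucose and 38 reads in normal glucose at 24 h. In both media NONRATT008728.2 was higher and NONRATT008727.2 lower at 48 h, and the locus sum differed less, with ratios of 0.777 in high glucose and 1.07 in normal glucose.

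On chromosome 2, NONRATT015835.2 (chromosome 2, 250600876 to 250633910, spliced, 1735 nt) had 81 reads in high glucose and 44 reads in normal glucose at 48 h, against 5 reads in high glucose and 8 reads in normal glucose at 24 h. NONRATT015836.2, which lies within its span and covers most of it (250601084 to 250633551), was absent from the high glucose table at 48 h and had 394 reads in normal glucose then, against 321 reads in high glucose and 245 reads in normal glucose at 24 h. The locus as a whole was lower at 48 h in high glucose, with a ratio of 0.378, and 1.31 in normal glucose. NONRATT015835.2 held 53.6% of the reads of the locus in high glucose at 48 h and between 1.30% and 8.43% in the other 3 libraries.

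NONRATT000543.2 (chromosome 1, 85437986 to 85453098, spliced, 906 nt) had 317 reads in high glucose and 147 reads in normal glucose at 48 h, against 37 reads in high glucose and 43 reads in normal glucose at 24 h. Its neighbour in the locus, NONRATT000540.2 (85437780 to 85450752), had 53 reads in high glucose and 126 reads in normal glucose at 48 h, against 203 reads in high glucose and 107 reads in normal glucose at 24 h. The pair differed in opposite directions in high glucose, where NONRATT000543.2 was higher and NONRATT000540.2 lower at 48 h, and NONRATT000540.2 in normal glucose lay within 2-fold. The locus ratio was 1.25 in high glucose and 1.37 in normal glucose.

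**Figure D5:**
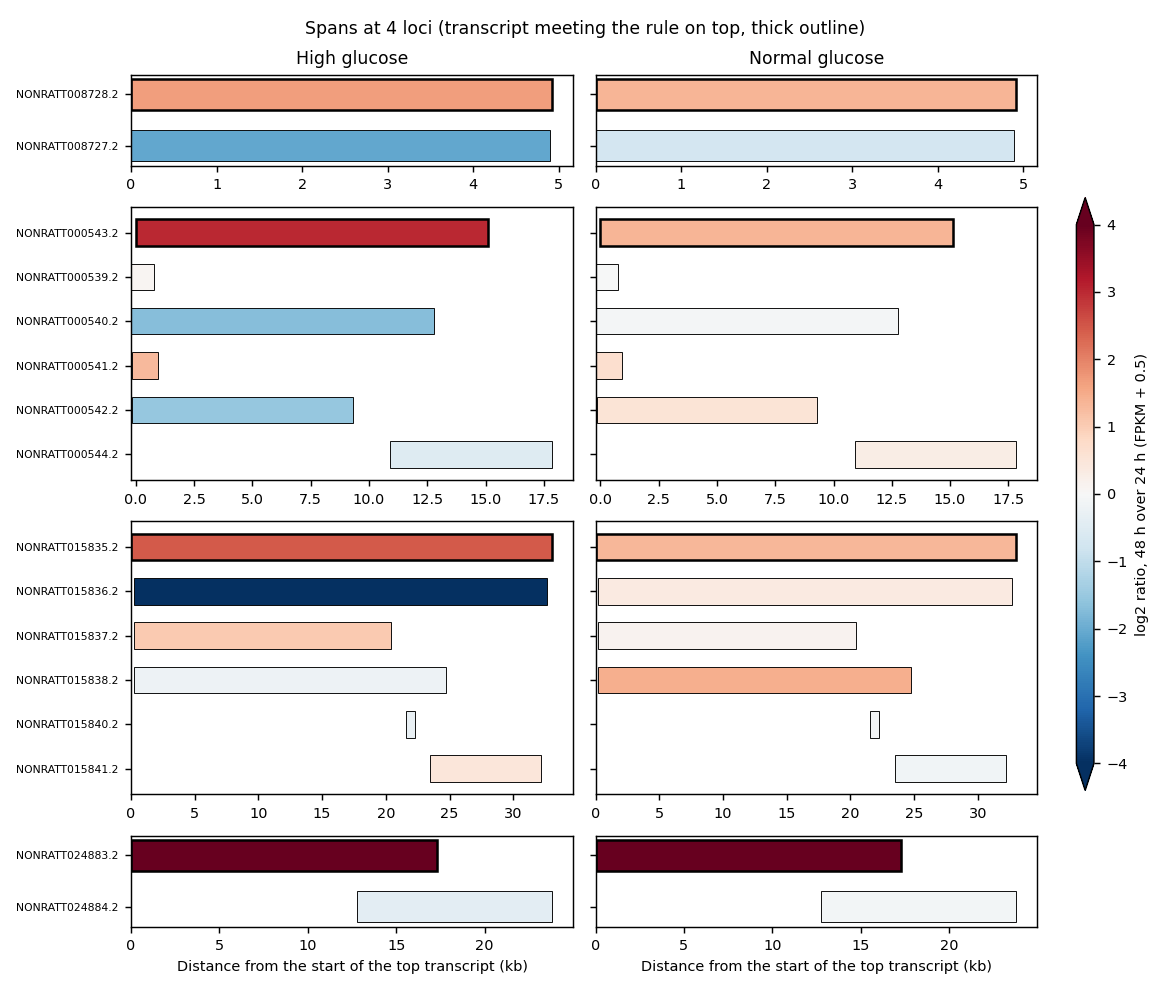
Spans of listed transcripts at 4 shared loci, drawn to scale as distance from the start of the transcript that met the rule (top bar, thick outline), in high glucose (left) and normal glucose (right). Colour is the log2 ratio of 48 h over 24 h (FPKM + 0.5), red higher and blue lower at 48 h, and colours saturate at 4; exons are not in the tables and are not drawn. NONRATT008727.2 is blue in both panels under NONRATT008728.2, and NONRATT015836.2 is blue in high glucose alone.

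At crowded loci the transcripts that met the rule were minor. NONRATT033351.1 shared its locus with 15 other listed transcripts, which had 1180 reads in high glucose and 1897 reads in normal glucose at 48 h, against 1235 reads in high glucose and 1229 reads in normal glucose at 24 h. It held 3.75% of the reads of the locus in high glucose and 2.87% in normal glucose at 48 h. NONRATT024455.2 shared its locus with 9 others and held 6.82% in high glucose and 4.89% in normal glucose at 48 h. Both locus sums were near their 24 h level in high glucose, with ratios of 0.978 for NONRATT033351.1 and 0.966 for NONRATT024455.2. In normal glucose the ratios were 1.17 for NONRATT033351.1 and 1.16 for NONRATT024455.2. The reads above are not scaled to the library totals, whereas these ratios are.

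The other shared loci lay between these. NONRATT015318.2 held 12.0% of its locus in high glucose and 19.3% in normal glucose at 48 h, and under 1% in each 24 h library. NONRATT001887.2 held 71.5% in high glucose and 90.0% in normal glucose at 48 h, and its locus ratio was 1.91 in high glucose and 1.85 in normal glucose as summed FPKM, under the larger ratios by reads given above. NONRATT007974.2 (chromosome 12, 38793942 to 38804657, spliced, 747 nt) had 47 reads in high glucose and 99 reads in normal glucose at 48 h, against 7 reads in high glucose and 10 reads in normal glucose at 24 h. The ratio of its locus was 1.71 in high glucose and 1.83 in normal glucose. Most of the reads at the loci of NONRATT000051.2 and NONRATT000788.2 were theirs at 48 h. NONRATT000051.2 (chromosome 1, 15799915 to 15810797, spliced, 819 nt) had 81 reads in high glucose and 179 reads in normal glucose at 48 h, against 35 reads in high glucose and 18 reads in normal glucose at 24 h. NONRATT000788.2 (chromosome 1, 128488802 to 128495117, spliced, 686 nt) had 30 reads in high glucose and 35 reads in normal glucose at 48 h, against 10 reads in high glucose and 10 reads in normal glucose at 24 h, the lowest mean count of the 35. NONRATT030085.2 was joined to 6 others in a chain, and 1 of these overlapped its own span, NONRATT029442.2, with 3 reads or fewer in every library.

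Transcripts near the 35 but not overlapping their loci mostly lay within 2-fold between times. Within 50 kb of a locus, 15 of the 35 had 25 such transcripts with a mean count of 20 or more, and none of these 25 met the rule. Of the 25, 1 was 2-fold or more higher at 48 h in high glucose and 3 in normal glucose, beside 3.73% and 2.86% of the 5038. In the other direction 3 were 2-fold or more lower in high glucose and none in normal glucose, beside 7.68% and 3.53%. Their median log2 ratio was -0.18 in high glucose and 0.09 in normal glucose. The 1 in high glucose was NONRATT003218.2, which ends 0.032 kb before NONRATT003219.2 and had 176 reads in high glucose and 5 reads in normal glucose at 48 h, against 6 reads in high glucose and 4 reads in normal glucose at 24 h. NONRATT029957.2, which ends 0.225 kb before NONRATT029958.2, had 40 reads in high glucose and 30 reads in normal glucose at 48 h, against 65 reads in high glucose and 3 reads in normal glucose at 24 h. These close neighbours were each 2-fold or more higher in 1 medium, whereas NONRATT003219.2 and NONRATT029958.2 were higher in both. Other close neighbours lay within 2-fold in both media. Such were NONRATT001982.2, at 0.023 kb from the locus of NONRATT000051.2, and NONRATT023323.2, at 0.098 kb from NONRATT023324.2.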

How the data were processed

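Total RNA was made into strand-specific libraries with the TruSeq Stranded Total RNA kit, per the labels' protocols, and 1 library per group was analysed. The submitters' processing notes name TopHat2 2.1.0, Cufflinks and the builds rn6 and Rnor_6.0. The counting tool, the use of strand, the annotation version and the type of count are not stated in the labels or tables used here. Per the file headers, each deposited table gives a read count and an FPKM value for every listed lncRNA transcript, with its position. Transcript length, in nt, is deposited in 1 of the 4 tables, and for 4 of the 35 transcripts it was recovered here from count, FPKM and library total. A transcript missing from a table was set to 0, which assumes that unlisted means no read.

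From these values ratios of FPKM + 0.5 were computed, and folds of CPM (the count scaled to the recovered library total) with exact conditional 95% intervals (Python 3.11.15, pandas 2.3.3, scipy 1.17.1; figures with matplotlib 3.10.9). TMM factors came from edgeR 4.0.16 in R 4.3.3, which served for no test. The lncRNA counts per library, between 846946 and 1075428, set the precision of each value. No test between groups was made, since each had 1 library and the rule used these ratios. The selection rule and the intervals were tested on simulated data with known folds, which enter no value given here. Transcripts were named by rank of the smaller log2 ratio (the 10 highest), mean count (the 5 highest), difference between media (3 each way) and distance to the threshold (3 on each side), and others are named after their values were seen. The window of 50 kb was also set after values were seen. The 35 transcripts, and what was listed about them, were chosen with earlier results of these data known. Alternatives changed the pseudocount, the count minimum, the threshold, the scaling, the overlap and the unit (transcript or locus).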

Additional observations from a re-analysis of the deposited data

How the results depend on the processing

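The number of transcripts meeting the rule was 58 with no minimum on the mean count and 16 with a 4-fold threshold, by the construction of these settings. It stayed between 24 and 40 under the other settings, and all 35 were kept with a pseudocount of 0.1 FPKM and with TMM factors, median-of-ratios size factors or equal lncRNA sums. With a pseudocount of 1 FPKM 31 of the 35 were kept. The median ratio of 48 h over 24 h in high glucose was 12.0 with a pseudocount of 0.1 FPKM, against 7.17 with 0.5 FPKM. The summed other transcripts at the shared loci had a ratio of 48 h over 24 h in high glucose of 0.863, of 0.767 where a larger overlap, of 50% of the shorter span, was asked for, and of 0.908 from counts scaled by library totals. The medians of the 35 kept their direction in all 4 contrasts under each scaling, whereas the median log2 ratio of all 5038 for high over normal glucose at 24 h, -0.04 as deposited, was 0.04 with TMM factors, 0.07 with size factors and 0.02 with equal sums. No analysis paired by culture was made, since each group has 1 library and the labels carry no replicate numbers. No library was left out, since that would empty a group. A fit of time with medium as a block was not made, since the rule used these ratios. Depth limits the transcripts near 0 at 24 h: 15 of the 35 in high glucose and 10 in normal glucose had 3 reads or fewer there. Their folds are taken against 3 reads or have wide intervals. A difference between times or media cannot be told apart from one between libraries.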
